A study of Mus musculus with 7 samples.

Results

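Cytochrome P450 enzymes and the cholesterol carrier Star were followed in medullary thymic epithelial cells, as a group of self-antigens that belong to the liver and to steroid-making glands. The group was a written list of 8 genes: Cyp1a2, Cyp2e1, Cyp3a11, Cyp7a1, Cyp11a1, Cyp17a1, Cyp19a1 and Star. A probe set annotated with that 1 gene was found for 7 of them, out of 19937 genes measured in this way. Cyp19a1 was not analysed here. The cells were medullary epithelial cells (MECs) with high MHC class II, sorted after collagenase and dispase digestion of the thymus. ReconRAG1KO (4 samples) came from NOD mice with null RAG1, the recombinase that rearranges antigen receptor genes. ReconSCID (3 samples) came from NOD mice with SCID, a mutation in DNA-PK, the DNA-dependent protein kinase of double-strand break repair. Mice of both groups were irradiated with 200 rad at 2 to 4 days of age, given bone marrow 6 h later by intraperitoneal injection, and analysed 6 to 8 weeks after transfer. The genotype of the marrow donors, the sex of the mice and the number of thymi in a sample are not stated in the labels used here. The comparison asks how gene expression in these cells differs between hosts with the DNA-PK mutation and hosts with null RAG1. Effects of either mutation, and of the irradiation in hosts that carry it, cannot be told apart.

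P450 enzymes are haem proteins that insert oxygen into their substrates. Those of the liver clear drugs and make bile acids, and those of the adrenal cortex and gonads build steroid hormones from cholesterol. Medullary epithelial cells transcribe many genes of other tissues at low level, in part through the regulator Aire, so that developing T cells meet those proteins before they leave the thymus. People who lack AIRE develop autoimmune polyendocrine syndrome type I, in which CYP1A2 is a target in hepatitis and CYP11A1 and CYP17A1 are targets in adrenal and gonadal failure. CYP2E1 is a target in hepatitis caused by halothane.

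Sequence upstream of the start was available for 5 of the 8 genes (RefSeq, GRCm38.p6). The windows below end at the base before the start and hold 250 bases each. Those of Cyp1a2 and Cyp11a1 are shown because these 2 genes were lower in reconSCID, and that of Cyp2e1 because it shares a motif with Cyp1a2. Whether a motif bears on a difference between the groups was not tested. Cyp2e1 had a low signal, so a difference in it may not be measurable. Each is written 5′ to 3′ on the strand of its gene, and capitals mark the motif TATAAA, the core of a TATA box.
Cyp1a2 (chr9:57683656-57683905, minus strand): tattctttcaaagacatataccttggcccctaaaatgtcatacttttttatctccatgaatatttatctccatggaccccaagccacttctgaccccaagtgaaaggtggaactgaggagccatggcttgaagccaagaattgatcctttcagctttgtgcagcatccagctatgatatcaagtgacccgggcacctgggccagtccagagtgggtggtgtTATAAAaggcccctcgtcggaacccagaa
Cyp11a1 (chr9:57997774-57998023, plus strand): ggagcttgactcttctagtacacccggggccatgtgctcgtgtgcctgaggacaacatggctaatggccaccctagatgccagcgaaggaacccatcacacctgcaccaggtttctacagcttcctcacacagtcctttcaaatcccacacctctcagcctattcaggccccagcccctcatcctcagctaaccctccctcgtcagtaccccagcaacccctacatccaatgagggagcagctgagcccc
Cyp2e1 (chr7:140763569-140763818, plus strand): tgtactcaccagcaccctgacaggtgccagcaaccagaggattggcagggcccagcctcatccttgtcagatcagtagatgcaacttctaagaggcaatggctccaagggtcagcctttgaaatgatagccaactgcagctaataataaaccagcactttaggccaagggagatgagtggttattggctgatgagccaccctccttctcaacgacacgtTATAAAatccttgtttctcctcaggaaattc
TATAAA begins 29 bases before the start in Cyp1a2 and 31 bases before it in Cyp2e1. The Cyp11a1 window has no match. On either strand, 12.4% of all 32851 windows of this length hold TATAAA. Also searched on both strands were AGGTCA, the core recognised by many nuclear receptors, and GCGTG, the core of the response element of the aryl hydrocarbon receptor Ahr. They do not overlap TATAAA in these windows. AGGTCA occurs in 14% and GCGTG in 28.2% of all windows, and neither is in the 3 windows shown. Another RefSeq start of Cyp11a1 has AGGTCA beginning 28 bases before it (chr9:58014702-58014951). The window of Cyp3a11 holds AGGTCA beginning 162 bases and TATAAA beginning 234 bases before its start. A match of letters is a description of the window, and no binding was measured.

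Values are intensities of Affymetrix probe sets on a log2 scale, where a difference of 1 is a 2-fold change. Median intensities of the 7 arrays lay between 88.6 and 96.3. ReconRAG1KO replicate 4 and reconSCID replicate 2 formed a set of their own: the correlation between them was 0.972, that with the larger set of 5 arrays 0.922 to 0.947, and that inside the larger set 0.976 to 0.990. No label names a batch. Each set holds both groups, so results are also given from a blocked fit, in which the set is a blocking factor. Markers of the sorted cells were present, with mean log2 intensities of 10.96 for Aire, 13.37 for the invariant chain gene Cd74 and 10.69 for keratin gene Krt5, against a median of 6.51 over all probe sets. Genes of other cell types also had signal, and Lyz2 of the macrophage and dendritic list averaged 12.37. The purity of the sort was not measured here. By limma, 0 of 34760 probe sets passed at an adjusted p under 0.05, and 765 were higher and 394 lower in reconSCID at an unadjusted p under 0.05. In the blocked fit 0 passed, and 2271 and 2005 had an unadjusted p under 0.05.

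Among the liver and steroid-synthesis genes, Cyp11a1 and Cyp1a2 were lower in each reconSCID sample than in each reconRAG1KO sample. Their levels were 34.6% and 30.8% lower. The other 5 measured genes had overlapping groups, and their differences were smaller. None of the 7 passed at an adjusted p under 0.05, a rule that called 0% of all probe sets. Lower values without overlap between groups were found in 2 of the 7 genes, against 1.54% of all genes, and higher values without overlap in 0 of 7, against 1.23%. At an unadjusted limma p under 0.05, 2 of 7 were lower and 0 higher, against 1.19% and 0.863% of all genes. In the blocked fit 2 were lower and 1 higher by that rule, against 6.75% and 5.34%. Lower means were found in 4 of 7, against 52.4% of all genes, and the median difference was -0.13, against -0.01 over all genes. Without reconSCID replicate 3 this median was 0.02. The 8 genes were listed with earlier results of these data known, so these counts and the median are no independent evidence of direction.

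**Figure D1:**
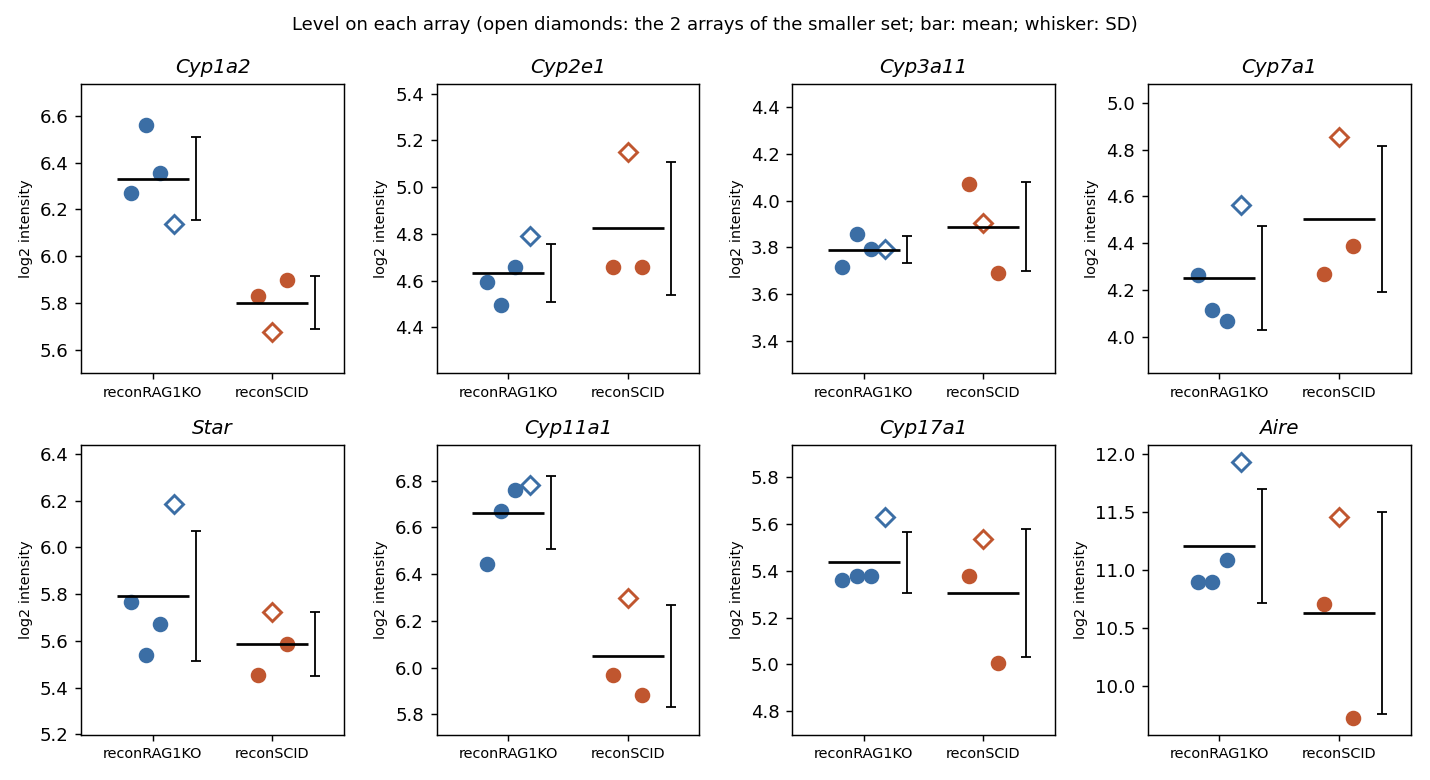
Each panel plots the log2 intensity of 1 gene on each array for the 4 reconRAG1KO (blue) and 3 reconSCID (orange) samples, with the mean as a bar and the SD as a whisker. Open diamonds are the 2 arrays of the smaller set. The gene panels span the same height, except that of Aire, which spans about double. The groups are separate for Cyp1a2 and Cyp11a1 and overlap for the other genes.

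Cyp1a2 (probe set 10593981) is a liver enzyme that oxidises caffeine and aromatic amines. It measured 6.27, 6.56, 6.35 and 6.14 in reconRAG1KO replicates 1 to 4 and 5.83, 5.67 and 5.90 in reconSCID replicates 1 to 3. The lowest reconRAG1KO value stood 0.24 above the highest reconSCID value. The means were 6.33 ± 0.18 (SD, n = 4) and 5.80 ± 0.11 (SD, n = 3). The log2 difference of Cyp1a2, reconSCID minus reconRAG1KO, was -0.53 ± 0.12 (SE), with a 95% interval from -0.83 to -0.24, a limma p of 0.00398 before and 1 after adjustment. In the blocked fit it was -0.51 ± 0.08 (SE), with an adjusted limma p of 0.233. The difference of Cyp1a2 was -0.53 within the 5 arrays of the larger set and -0.47 between the 2 arrays of the smaller set. Its lowest value in each group was on the array of the smaller set, whereas in 5 of the 7 genes that array gave the highest value of its group. Leaving out 1 sample at a time gave differences from -0.60 to -0.45.

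The other liver genes had low signals. In order of their mean level over all probe sets, Cyp1a2 stood at the 41.7th percentile, Cyp2e1 at the 18.7th, Cyp7a1 at the 14.4th and Cyp3a11 at the 8.68th, and probe sets differ in how brightly they report a given amount of RNA. In such dim probe sets a difference may not be measurable. Cyp2e1 (probe set 10558673), which oxidises ethanol and paracetamol, measured 4.59, 4.49, 4.66 and 4.79 in reconRAG1KO and 4.66, 5.15 and 4.66 in reconSCID. Its highest value in each group was on the array of the smaller set, and 3 arrays shared the value 4.659. The difference of Cyp2e1 was 0.19, with an interval from -0.17 to 0.55. Cyp3a11 (probe set 10535704), a major drug-metabolising enzyme, measured 3.72, 3.86, 3.79 and 3.79 in reconRAG1KO and 4.07, 3.91 and 3.69 in reconSCID. The reconSCID values lay on both sides of the control values, and the difference of Cyp3a11 was 0.10, with an interval from -0.16 to 0.36. A probe set shared by Cyp3a11, Cyp3a41a, Cyp3a41b and Cyp3a44 differed by 0.08, with an interval from -0.22 to 0.38. Near-identical Cyp3a genes make both probe sets uncertain.

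Cyp7a1, the rate-limiting enzyme of bile acid synthesis, was the member with the largest difference upward. Cyp7a1 (probe set 10511375) measured 4.26, 4.11, 4.07 and 4.56 in reconRAG1KO and 4.27, 4.86 and 4.39 in reconSCID. The groups overlapped through reconRAG1KO replicate 4, which was higher than 2 of the 3 reconSCID values. The difference of Cyp7a1 was 0.25, with an interval from -0.19 to 0.69. In the blocked fit it was 0.21, with an interval from 0.03 to 0.40 and an adjusted limma p of 0.359.

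Of the steroid-synthesis genes, Star acts before the P450 enzymes, since it carries cholesterol to the inner mitochondrial membrane. Star (probe set 10571054) measured 5.77, 5.54, 5.67 and 6.18 in reconRAG1KO and 5.45, 5.72 and 5.59 in reconSCID. Its highest value was reconRAG1KO replicate 4 and the groups overlapped. The difference of Star was -0.20, with an interval from -0.60 to 0.20, and -0.23 in the blocked fit, with an interval from -0.47 to 0.01.

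Cyp11a1 is the side-chain cleavage enzyme, which turns cholesterol into pregnenolone in the mitochondria. Cyp11a1 (probe set 10585794) measured 6.44, 6.67, 6.76 and 6.78 in reconRAG1KO and 5.97, 6.30 and 5.88 in reconSCID. The lowest reconRAG1KO value stood 0.15 above the highest reconSCID value. The means were 6.66 ± 0.15 (SD, n = 4) and 6.05 ± 0.22 (SD, n = 3). The log2 difference of Cyp11a1 was -0.61 ± 0.14 (SE), with a 95% interval from -0.95 to -0.28, a limma p of 0.00346 before and 1 after adjustment. In the blocked fit it was -0.63 ± 0.10 (SE), with an adjusted limma p of 0.233. It was -0.70 within the larger set and -0.48 between the 2 arrays of the smaller set. Leaving out 1 sample at a time gave differences from -0.74 to -0.53.

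Cyp17a1, which acts after Cyp11a1 on the way to cortisol and androgens, had overlapping groups. By mean level it stood at the 28.5th percentile of all probe sets, Star at the 33.9th and Cyp11a1 at the 47.7th. A difference in Cyp17a1 may therefore be harder to measure than in Cyp11a1. Cyp17a1 (probe set 10468239) measured 5.36, 5.38, 5.38 and 5.63 in reconRAG1KO and 5.38, 5.54 and 5.005 in reconSCID. ReconSCID replicate 3 was the lowest and the other 2 reconSCID samples lay within the control range. The difference of Cyp17a1 was -0.13, with an interval from -0.49 to 0.23, and 0.02 without reconSCID replicate 3. Whether the differences of Cyp11a1 and Cyp17a1 differ from each other was not tested.

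**Figure D2:**
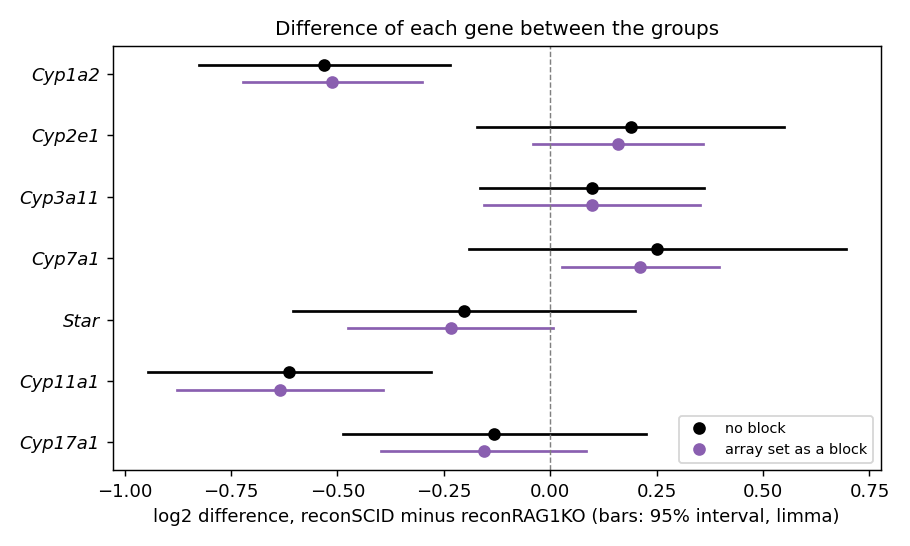
The plot gives the log2 difference of each gene, reconSCID minus reconRAG1KO, with its 95% interval from limma, without a block (black) and from the blocked fit (purple). The intervals of Cyp1a2 and Cyp11a1 lie below 0 in both fits, that of Cyp7a1 lies above 0 with the block, and the other intervals include 0.

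Marker genes of the sorted cells and of other cell types were set beside these differences, and 0 of the genes in the marker lists passed at an adjusted p under 0.05 by limma in either fit. Aire measured 10.90, 10.89, 11.09 and 11.93 in reconRAG1KO and 10.70, 11.46 and 9.73 in reconSCID, with overlapping groups. All 16 measured genes of a general epithelial list were lower, with a median difference of -0.37, and their summed intensity ran from 9248 to 16524 in reconRAG1KO and from 5399 to 13780 in reconSCID. Medullary epithelial genes were lower in 15 of 18, with a median of -0.35 and differences from -0.71 (Cldn4) to 0.07. B cell genes were higher in 13 of 13, with a median of 0.91 and summed intensities of 1472 to 1695 and 1704 to 5350. Macrophage and dendritic genes were higher in 10 of 14, with a median of 0.16 and summed intensities of 7514 to 11895 and 5695 to 18663. Endothelial genes were higher in 10 of 11 and fibroblast genes in 6 of 10, with medians of 0.205 and 0.214, or 0.128 and 0.033 in the blocked fit. T cell and thymocyte genes were higher in 7 of 13, with a median of 0.04. Neutrophil genes were lower in 11 of 12, with a median of -1.20 and summed intensities of 1453 to 10106 and 1201 to 2039. Of these, Lcn2 (-1.52) and Retnlg (-1.39) had groups without overlap, and the median was -0.71 without reconRAG1KO replicate 2. Genes of cortical epithelial cells were lower in 7 of 11, with a median of -0.18 and summed intensities of 3810 to 9471 and 3410 to 5268. Ccl25, a chemokine gene of these cells, differed by -1.37, with overlap. Leaving out 1 sample at a time gave cortical medians from -0.46, when reconSCID replicate 2 was left out, to 0.06, when reconRAG1KO replicate 4 was left out. In bulk samples fewer cells of a type and less RNA per cell cannot be told apart. Cyp1a2 was also set against the mean of the 16 epithelial genes on the same array, a choice made after seeing the data. On that scale it lay at -2.26, -2.06, -2.50 and -3.15 in reconRAG1KO and at -2.43, -3.46 and -1.92 in reconSCID, and the groups overlapped. Cyp11a1 lay at -2.08, -1.95, -2.09 and -2.51 and at -2.29, -2.84 and -1.94, also with overlap. The differences relative to the epithelial mean were -0.12 for Cyp1a2 and -0.20 for Cyp11a1, and relative to the medullary list -0.24 and -0.32. The epithelial median was -0.22 without reconRAG1KO replicate 4 and -0.76 without reconSCID replicate 2. Without reconSCID replicate 3 it was -0.12, the medullary median was -0.14 and that of B cell genes 0.56. Cyp1a2 then differed by -0.58 and Cyp11a1 by -0.53. In the smaller set the epithelial median was -0.19, and Cyp1a2 and Cyp11a1 differed by -0.47 and -0.48. In the larger set that median was -0.58, and the 2 genes differed by -0.53 and -0.70. In the blocked fit it was -0.46, beside -0.51 for Cyp1a2 and -0.63 for Cyp11a1. Lower values without overlap were found in 1 of 16 epithelial genes (Lsr) and 2 of 18 medullary genes (Cldn4 and Tnfrsf11a), against 1.54% of all genes. Cyp1a2 and Cyp11a1 were singled out for their low values, whereas a median covers a whole list. Single epithelial genes differed by -0.86 to -0.11 over the 7 arrays. In the smaller set Aire differed by -0.47, Cldn4 by -0.55 and Tnfrsf11a by -0.01. The part of these other genes in the differences of Cyp1a2 and Cyp11a1 was not tested further.

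Cyp11a1 is also transcribed in mast cells and in steroid-making tissue. Mast cell markers were lower in 7 of 10, with summed intensities of 1818 to 1979 in reconRAG1KO and 1327 to 1987 in reconSCID. The granule protease gene Cpa3 averaged 4.75 and differed by -0.35, and the IgE receptor gene Ms4a2 averaged 4.64 and differed by -0.12, both with overlap. In 2 of the 10 the groups did not overlap and reconSCID was lower, against 1.54% of all genes: Hdc (mean 9.55, -0.82) and Tpsb2 (-0.10). The 3 higher genes were Kit (mean 9.15, 0.28), Tpsab1 (0.049) and Cma1 (0.045). Adrenal and gonad markers were lower in 7 of 11, with summed intensities of 863 to 929 and 801 to 845 and no gene without overlap. Their part in the difference of Cyp11a1 was not tested. Hepatocyte markers were lower in 15 of 17, with a median of -0.13 and summed intensities of 1249 to 1395 and 1039 to 1354, and the median was -0.08 without reconRAG1KO replicate 4 and -0.04 without reconSCID replicate 3. Albumin gene Alb differed by -0.19 and transthyretin gene Ttr by -0.20.

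Across the P450 superfamily, 44 of 84 measured genes were lower and 40 higher, against 52.4% lower among all genes, and the median difference was -0.01, as over all genes. In the blocked fit 51 of the 84 were lower, against 54.3% of all genes, and their median was -0.04, against -0.01 over all genes. Lower values without overlap between groups were found in 3 of the 84, Cyp1a2, Cyp11a1 and Cyp26a1, against 1.54% of all genes. Cyp26a1, which degrades retinoic acid, measured 7.77, 8.05, 8.26 and 7.97 in reconRAG1KO and 7.69, 7.58 and 7.002 in reconSCID, a difference of -0.59 ± 0.20 (SE). ReconSCID replicate 3 gave its lowest value. Cyp2g1, an olfactory P450, differed by -0.54 and Cyp4f39, which hydroxylates fatty acids of the skin barrier, by -0.50, both with overlapping groups. P450 genes of families 1 to 3, most of them drug-metabolising liver enzymes, were lower in 28 of 53, with a median of -0.02, and in 34 of 53 in the blocked fit, with a median of -0.04. Cyp1a1 and Cyp1b1, the other enzymes of the family of Cyp1a2, differed by -0.07 and 0.10. No P450 gene passed at an adjusted p under 0.05 by limma.

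**Figure D3:**
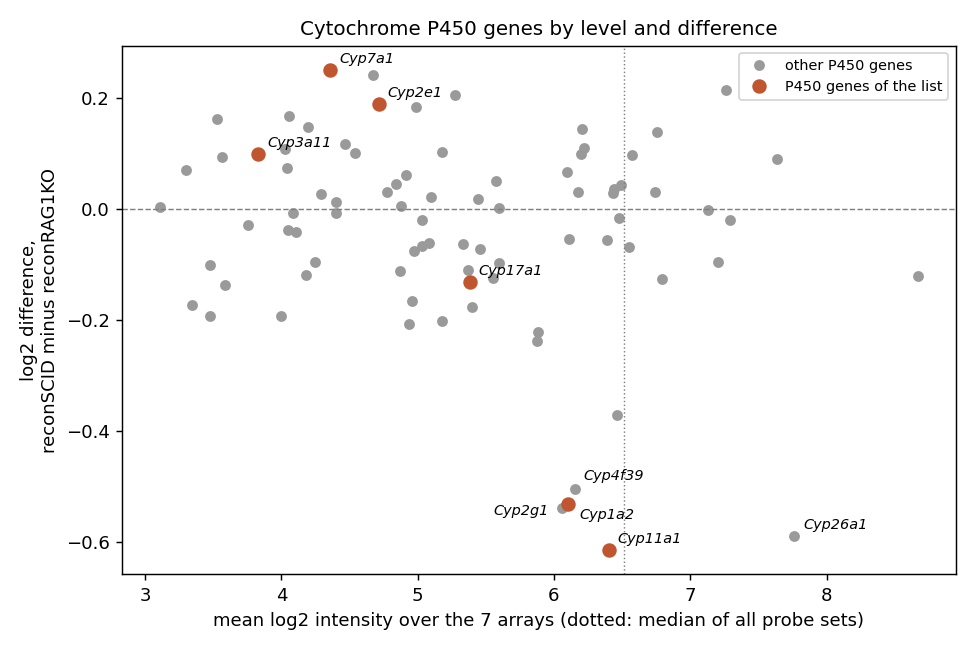
Each point is 1 of 84 P450 genes, placed by its mean log2 intensity over the 7 arrays and its log2 difference, reconSCID minus reconRAG1KO. Cyp1a2, Cyp11a1, Cyp26a1, Cyp2g1 and Cyp4f39 lie at or below -0.50, and the remaining genes between -0.37 and 0.25.

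The pathways around these enzymes gave no passing gene. Of 14 steroid-synthesis enzymes measured, 9 were lower, with a median of -0.13, and Cyp11a1 was the 1 without overlap. Akr1c18, which inactivates progesterone, differed by -0.53 and the adrenal enzyme gene Cyp21a1, whose product is the main target in autoimmune adrenal failure, by -0.21, both with overlap. Of 9 genes that supply cholesterol to mitochondria 5 were lower, with a median of -0.08. Of 5 electron donors 4 were lower, or 3 in the blocked fit. The mitochondrial ferredoxin gene Fdx1 differed by -0.25, or by -0.14 in the blocked fit. The donor genes Por, Fdxr and Fdx1l were not among the measured genes. Regulators of steroid synthesis were higher in 7 of 10, with a median of 0.02, and the master regulator gene Nr5a1 differed by -0.06. Bile acid synthesis genes were lower in 7 of 15, with a median of 0.01, and Cyp27a1 of the alternative pathway differed by -0.12. Liver and xenobiotic regulators were lower in 5 of 12, with a median of 0.03. Ahr, the receptor through which aromatic compounds induce Cyp1a2, averaged 8.70 in reconRAG1KO and 9.32 in reconSCID, a difference of 0.61 with an unadjusted limma p of 0.124. The blocked difference of Ahr was 0.69, with a limma p of 0.00084 before and 0.233 after adjustment. The groups overlapped, since reconSCID replicate 2 measured 8.61, below the reconRAG1KO mean. The hepatocyte factor gene Hnf4a differed by -0.03.

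Cyp1a2, Cyp11a1, Cyp17a1 and Cyp21a1 were also placed among other targets of autoimmune polyendocrine syndrome type I and autoimmune hepatitis. Of 20 such genes measured, 15 were lower and 5 higher, with a median of -0.14, or -0.09 without reconRAG1KO replicate 4 and -0.08 without reconSCID replicate 3. In 4 of the 20 the groups did not overlap and reconSCID was lower, against 1.54% of all genes: Hdc, Cyp11a1, Cyp1a2 and Bpifb1. The list was written with the differences of Cyp1a2, Cyp11a1 and Hdc known, so this count is no independent evidence of direction. Histidine decarboxylase gene Hdc measured 9.80, 9.77, 10.07 and 9.97 in reconRAG1KO and 9.72, 8.98 and 8.52 in reconSCID, a difference of -0.82. ReconSCID replicate 1 lay just under the controls and the other 2 well below them. Hdc is also in the mast cell list above. Bpifb1, of the airways, measured 6.27, 6.45, 6.48 and 7.20 and 6.23, 6.20 and 5.94, a difference of -0.48. The tryptophan hydroxylase gene Tph1 differed by -0.38 with overlapping groups. The hepatitis targets Ftcd and Sepsecs differed by 0.02 and 0.04.

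**Figure D4:**
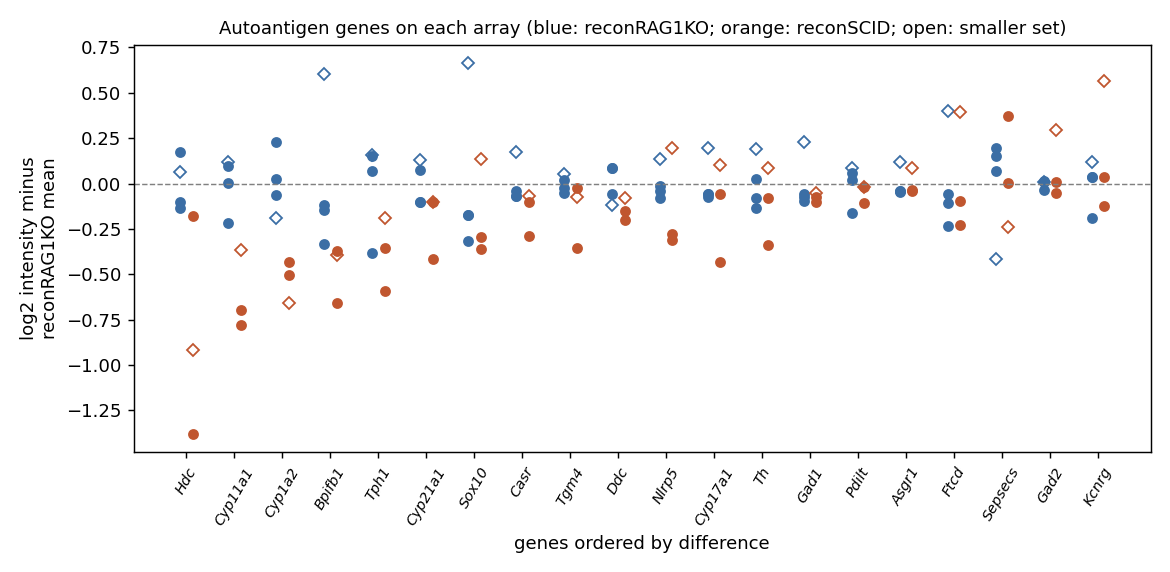
For 20 autoantigen genes the plot gives each array's log2 intensity minus the reconRAG1KO mean of that gene, in blue for reconRAG1KO and orange for reconSCID, with open diamonds for the smaller array set. The orange points lie below all blue points for Hdc, Cyp11a1, Cyp1a2 and Bpifb1.

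Cyp1a2 and Cyp11a1 lie close together on chromosome 9, a feature that the list did not use. In the gene order of GRCm38.p6, 6 protein-coding genes lie between them, all of them measured. None of the 6 had groups without overlap, and their differences ran from -0.27 (Sema7a, a semaphorin) to 0.09 (Arid3b). Cyp1a1, the gene next to Cyp1a2, differed by -0.07, Edc3 by -0.01, Clk3 by -0.13 and Ubl7 by -0.10. Of the 10 genes on the outer sides, 0 had groups without overlap. Over all genes 1.54% were lower and 1.23% higher without overlap, so 0 is close to that share for both sets of neighbours. The largest difference on the outer sides was -0.35 (Stra6, the receptor for the retinol carrier), or -0.41 in the blocked fit. Whether Cyp1a2 and Cyp11a1 differ from these neighbours was not tested.

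**Figure D5:**
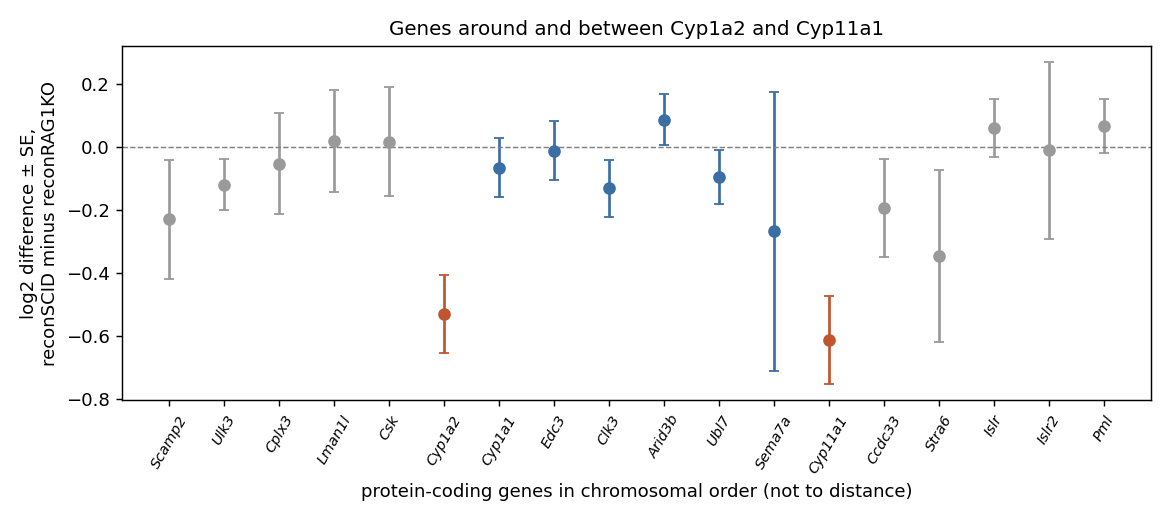
Log2 differences ± SE from limma are plotted for Cyp1a2 and Cyp11a1 (orange), the 6 protein-coding genes between them (blue) and 5 on either side (grey), in chromosomal order and not to distance. Cyp1a2 and Cyp11a1 lie at -0.53 and -0.61, and the others between -0.35 and 0.09.

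None of the 7 genes had a mean above the median of all probe sets, the level required for naming genes of like profile. With that condition dropped after seeing the data, likeness was measured as the root mean square difference of mean-centred log2 values over the 7 arrays, among 11550 genes above that median. The genes nearest to Cyp11a1 were Rasd2 (0.09), Micall2 (0.11) and 1600014C10Rik (0.12), and those nearest to Cyp1a2 were Ddit4 (0.12), Pacsin2 (0.14) and Sephs2 (0.15).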

How the data were processed

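Per the labels, RNA was extracted with Trizol, and 6 µg gave biotinylated cRNA for Affymetrix arrays. The authors deposited a linear intensity for each probe set, already summarised and brought to a similar level between arrays, by a method not given in the sources used here. Log2 of the deposited values was taken without a pseudocount, since 0 deposited values were below 1. The table holds 34760 probe sets: 21640 with 1 gene symbol in the platform annotation, 1321 with several and 11799 unnamed. Each gene is read from its probe set with the highest mean. Some probe sets (16049) hold the same deposited value on at least 2 arrays.

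All probe sets were compared between 4 reconRAG1KO and 3 reconSCID samples by the moderated test of limma (version 3.58.1, R 4.3.3; lmFit, eBayes). Tests were two-sided, p-values were adjusted by Benjamini-Hochberg over all 34760, and 0.05 was the threshold. The number of arrays limits the precision. Array sets came from average-linkage clustering of array correlations. Named are the 8 listed genes, Aire, up to 4 genes of smallest unadjusted p per list, the neighbours of Cyp1a2 and Cyp11a1, and genes of like profile; the others that are named were chosen after their values were seen. The members and lists were chosen with earlier results of these data known.

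Data for reconSCID against reconRAG1KO (34760 probe sets) were simulated with the array-set difference seen in the data. Without the block, 42 of 100 genes changed 2-fold and 78 of 100 changed 4-fold were called, with 1 unchanged probe set. With the block 81 and 97 were called, with 7 unchanged probe sets. Errors were drawn independently for each probe set, unlike genes that vary together with cell content. No change under 2-fold was simulated, so the share called at the size seen in Cyp1a2 and Cyp11a1 is not known.

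Alternatives were quantile normalization, median centring, a pseudocount of 16, removal of the lowest 25% of probe sets, a robust fit with a trend, array weights, the replicate number or array set as a block, the larger set alone, each sample left out, averaging a gene's probe sets and an unadjusted threshold.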

Additional observations from a re-analysis of the deposited data

Results flagged for a closer look

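Cyp17a1 in reconRAG1KO was marked because replicate 4 lay far from the other 3 samples, at 5.63 against 5.36 to 5.38, a gap of 0.943 of the group's range, above Dixon's 95% critical value of 0.829. Of the other named genes, the same measure in reconRAG1KO was 1 for Cyp1a1, 1 for Edc3, 1 for Nr5a1, 1 for Hnf4a, 0.974 for Stra6, 0.973 for Arid3b, 0.952 for Gata4, 0.89 for Ccl25, 0.873 for Cyb5a, 0.848 for Cyp1b1 and 0.836 for Tph1. These were 12 of 66 genes tested, and chance marks about 1 in 20 independent groups. The genes share the same arrays, so their tests are not independent. In Arid3b and Tph1 the sample that stood apart was replicate 1. In all other marked genes it was replicate 4, the reconRAG1KO array of the smaller set. Repeated deposited values make the remaining samples of some of these groups identical. Cyp1a2, Cyp11a1, Star, Cyp2e1, Cyp3a11 and Cyp7a1 were not marked.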

How the results depend on the processing

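Cyp1a2 and Cyp11a1 stayed lower in reconSCID under each alternative run, with differences from -0.60 to -0.12 and from -0.74 to -0.20. In each case the value nearest 0 was that relative to the epithelial genes, which was added after seeing the data. Neither passed at an adjusted p under 0.05 in any alternative fit, and the smallest adjusted limma p were 0.0603 and 0.0528, both with array weights. That fit gave reconSCID replicate 1 a weight of 4.79 and replicates 2 and 3 weights of 0.12 and 0.80, and it called 57 probe sets, 10 of them lower, against 0 without weights. At an unadjusted p under 0.05, both genes and 1159 probe sets in all were called. Leaving out 1 sample at a time, in the blocked fit or not, called 0. The median over the 7 measured genes was -0.13. It was -0.37 with the filter on low values, which leaves 4 of the genes, and ran from -0.25 to 0.02 with 1 sample left out, the latter without reconSCID replicate 3. The difference of Cyp17a1 was then 0.02. That of Cyp3a11 was -0.013 in the blocked fit without reconSCID replicate 1. The cause of these 2 changes of sign was not tested. With the replicate block the differences were -0.60 for Cyp1a2 and -0.57 for Cyp11a1 and 0 probe sets were called. Same-numbered samples deviated together by correlations of 0.472, -0.509 and 0.314, so the numbers were not taken to pair the samples, and 1 of 3 reconSCID samples correlated best with its own number. Signal over background was not given for these arrays, so dim probe sets such as those of Cyp3a11 and Cyp7a1 limit what can be measured.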
